A study of Mus musculus with 10 samples.

Results

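The genes described here are 10 genes of the liver's response to fasting and to glucocorticoids, given as a list of names: Klf9, Klf15, Tsc22d3, Fkbp5, Lpin1, Ddit4, Sesn1, Sesn3, Trib1 and Pdk4. All 10 were found among the 18869 gene identifiers of the deposited table, and 9 had enough reads for the test across all genes, with Pdk4 below the filter. They were measured in 5 liver libraries of Nrf2Act-hep mice, described in the labels as having NRF2 activated in the liver alone, and in 5 libraries of wild-type (WT) mice. All mice were of the C57BL/6 strain, aged 6 weeks and chow-fed, and all had been without food for 15 h when the livers were taken, so every level below is a fasted one and no fed liver was compared. The labels do not say which allele, promoter or Cre line activates NRF2, whether the WT mice carried any control allele, or at what hour the livers were collected. The series asks whether NRF2, a transcription factor of antioxidant genes, turns on growth factor genes and AKT signalling. Sample titles carry a letter, M for 3 Nrf2Act-hep and 2 WT libraries and F for 2 Nrf2Act-hep and 3 WT libraries. Nothing in the labels ties a library to a separate mouse, so the p-values below speak of spread among libraries, some of which may be technical.

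In fasting, insulin falls while glucagon and adrenal glucocorticoids rise. Glucocorticoids act through the glucocorticoid receptor, which leaves its HSP90 chaperone complex, enters the nucleus and binds DNA at paired AGAACA-like arms. Low insulin quiets AKT, which otherwise keeps FOXO transcription factors out of the nucleus, and fatty acids released from fat activate PPAR-alpha. The 10 genes are known targets of one or more of these routes, and several of their proteins feed back on the same routes.

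Promoter sequence is shown for the gene that varied most between libraries, Ddit4, and for the pair of Krüppel-like factors, whose windows hold the letters searched for. Each is written 5′ to 3′ on the gene's own strand, from RefSeq on GRCm38.p6, and ends before the RefSeq start, with searched motifs in capitals. The windows are chr10:59951835-59952020 on the minus strand for Ddit4 (bases 250 to 65 upstream), chr19:23140976-23141225 on the plus strand for Klf9 and chr6:90462326-90462575 on the plus strand for Klf15 (both 250 bases).
Ddit4: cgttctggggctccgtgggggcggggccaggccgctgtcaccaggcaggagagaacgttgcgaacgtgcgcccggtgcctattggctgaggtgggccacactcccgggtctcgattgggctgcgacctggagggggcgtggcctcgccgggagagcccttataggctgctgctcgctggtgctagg
Klf9: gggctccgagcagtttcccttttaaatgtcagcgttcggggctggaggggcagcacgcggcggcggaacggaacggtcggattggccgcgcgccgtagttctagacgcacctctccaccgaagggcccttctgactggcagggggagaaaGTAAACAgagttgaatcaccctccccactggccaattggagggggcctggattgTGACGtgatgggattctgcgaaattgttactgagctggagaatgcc
Klf15: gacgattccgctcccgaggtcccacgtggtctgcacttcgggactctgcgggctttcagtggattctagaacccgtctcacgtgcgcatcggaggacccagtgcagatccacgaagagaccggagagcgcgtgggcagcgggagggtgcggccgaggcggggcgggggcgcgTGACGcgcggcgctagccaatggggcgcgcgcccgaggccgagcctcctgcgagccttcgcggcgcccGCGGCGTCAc
The capitals in Klf9 mark GTAAACA, a FOXO motif, 100 bases upstream, and TGACG, one arm of a cyclic AMP response element, 46 bases upstream. In Klf15 they mark TGACG 78 bases upstream and a run near the start that holds, on the opposite strand, the antioxidant response element core TGACNNNGC, overlapped by a TGACG arm.

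The search covered the 250 upstream bases of every RefSeq window on both strands. Of the 10 genes, 9 had a window, 12 windows in all, and Trib1 had none in the table. The full glucocorticoid palindrome, AGAACA and TGTTCT with 3 free bases between, was in 0 of the 12 windows and in 0.00913% of 32851 windows of all genes. A single arm, AGAACA, was in 2 of the 12, those of Lpin1 and Tsc22d3, and in 16.1% of all windows. The FOXO letters were in 1 of the 12 and in 3.17% of all windows. The antioxidant core was in 1 of the 12, against 10.2% of all windows. TGACG was in 4 of the 12, belonging to Klf9, Klf15, Sesn1 and Tsc22d3, against 17.8% of all windows. A match describes letters only, and binding was not measured.

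Read depth was 2167528 to 2806670 reads per Nrf2Act-hep library and 1267745 to 2287727 per WT library. At these depths 3 reads equal 1.07 to 1.38 CPM (reads scaled to a common total per library) in Nrf2Act-hep libraries and 1.31 to 2.37 CPM in WT libraries, counting error only. The kit tags the 3′ end of each transcript, so transcript length should weigh little on the number of tags. Levels of different genes are set beside each other on that ground, which was not tested here. Nqo1, a classical NRF2 target, averaged 36.9 ± 13.3 CPM in Nrf2Act-hep and 3.35 ± 1.62 CPM in WT livers (SD, n = 5 each). Nfe2l2, which encodes NRF2 itself, was lower, at 40.8 ± 4.16 CPM in Nrf2Act-hep and 59.8 ± 11.99 CPM in WT livers (log2 fold change -0.47, limma adjusted p = 0.0436). Xist was at 0 CPM in all M libraries and at 331.8 CPM or more in each F library. Ddx3y was at 100.7 CPM or more in each M library and at 0 to 0.41 CPM in the F libraries. Both genes thus divide the F and M libraries as they divide female and male tissue. The summed level of 5 hepatocyte markers was 28190 to 36910 CPM in Nrf2Act-hep and 39180 to 47270 CPM in WT libraries, with Apoa1 and Serpina1a called lower. Most of that sum was Alb, which was not called (log2 fold change -0.43, limma adjusted p = 0.0804). Ttr (-0.13, limma adjusted p = 0.683) and Hnf4a (-0.09, limma adjusted p = 0.779) were not called either. Of the markers of other liver cells, 0 of 7 Kupffer cell markers (summed 166.5 to 239.7 CPM in Nrf2Act-hep, 207.9 to 262.8 CPM in WT), 0 of 6 endothelial, 0 of 5 stellate and 0 of 2 neutrophil markers tested were called, none of these lists was at 0 throughout, and their part in the results was not tested. Neutrophil markers summed to 9.44 to 15.5 CPM in Nrf2Act-hep and 11.7 to 98.9 CPM in WT libraries, highest in WT replicate 5. Lymphocyte markers summed to 10.1 to 22.2 CPM in Nrf2Act-hep and 9.55 to 23.2 CPM in WT libraries, and cholangiocyte markers to 27.9 to 61.1 CPM in Nrf2Act-hep and 32.5 to 72.0 CPM in WT libraries, with 0 of the 1 and 0 of the 2 tested called.

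None (0) of the 9 genes tested passed the threshold in either direction between Nrf2Act-hep and WT livers, where 4.64% of all 8075 genes tested were called in either direction (limma on log2 of TMM-scaled CPM + 1 with the letter as covariate, adjusted p under 0.05). At an unadjusted p under 0.05 there were 2 of the 9, Fkbp5 and Ddit4, and 1308 of the 8075. The values of Nrf2Act-hep and WT libraries overlapped for all 10 genes, where 3.05% of all genes tested were higher without overlap and 2.09% lower. The median log2 fold change of the 9 was 0.15, with 6 above 0, and that of all genes was 0.01, with 4094 above 0. On the recovered reads, edgeR and limma-voom called 0 of the 9 and DESeq2 called 1, Ddit4. In whole liver, fewer cells of a type and less RNA per cell cannot be told apart.

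**Figure D1:**
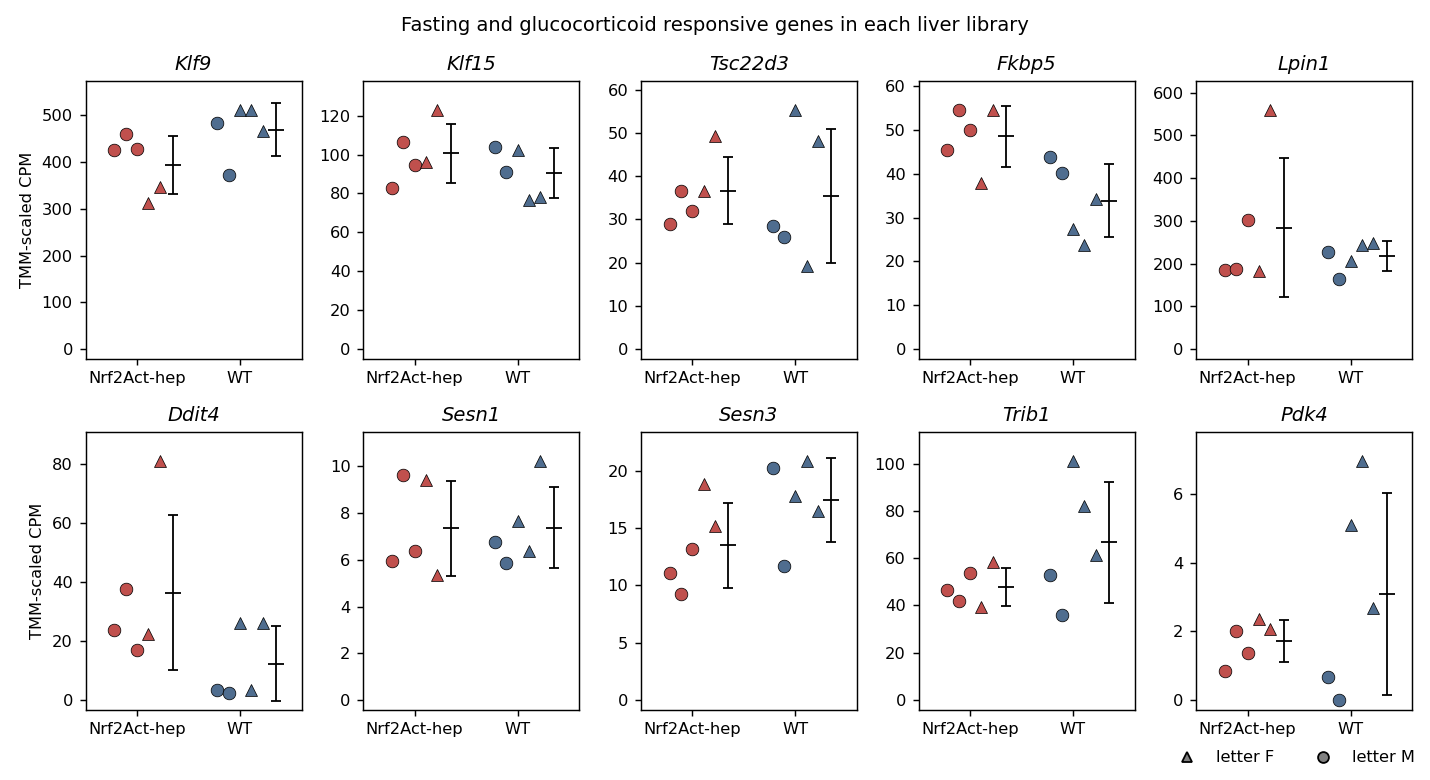
TMM-scaled CPM of the 10 genes in each library, 1 panel per gene, with Nrf2Act-hep libraries left and WT libraries right, circles for M and triangles for F, and bars at mean ± SD (n = 5 each). The groups overlap in every panel, and Ddit4 is 3.5 CPM or less in 3 WT libraries.

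The Krüppel-like factors Klf9 and Klf15 are transcription factors that glucocorticoids induce directly. Klf9 (ENSMUSG00000033863, chromosome 19, 23141226 to 23168134, plus strand of GRCm38) was on average the most abundant of the 10. It stood at 426.5, 459.5, 427.9, 312.0 and 347.3 CPM in Nrf2Act-hep replicates 6 to 10, against 483.8, 372.4, 512.0, 510.4 and 467.3 CPM in WT replicates 1 to 5. The lowest levels were those of both F Nrf2Act-hep libraries, and WT replicate 2 lay inside the Nrf2Act-hep range. Means were 394.6 ± 62.1 CPM in Nrf2Act-hep and 469.2 ± 57.3 CPM in WT livers, with a log2 fold change of -0.27 (95% interval -0.55 to 0.00, adjusted p = 0.316). Its span also holds the microRNA gene Mir1192, whose reads were listed apart.

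Klf15 (ENSMUSG00000030087, chromosome 6, 90462576 to 90475238, plus strand) drives amino acid breakdown and gluconeogenesis in the fasted liver. Its levels were 82.6, 106.5, 94.8, 96.2 and 123.1 CPM in Nrf2Act-hep replicates 6 to 10, against 104.1, 91.2, 102.5, 76.6 and 78.4 CPM in WT replicates 1 to 5. The groups overlapped over most of their range, and Nrf2Act-hep replicate 10 was highest. The log2 fold change was 0.15 (95% interval -0.13 to 0.43, adjusted p = 0.637).

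Tsc22d3 and Fkbp5 are textbook readouts of the active glucocorticoid receptor. Tsc22d3 (ENSMUSG00000031431, chromosome X, 140539528 to 140600659, minus strand) encodes the glucocorticoid-induced leucine zipper protein GILZ. It measured 29.0, 36.6, 31.9, 36.7 and 49.3 CPM in Nrf2Act-hep replicates 6 to 10, against 28.4, 25.9, 55.4, 19.2 and 48.1 CPM in WT replicates 1 to 5. The WT libraries held both the highest and the lowest value, and all Nrf2Act-hep libraries fell between them. The log2 fold change was 0.22 (95% interval -0.27 to 0.70, adjusted p = 0.707).

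Fkbp5 (ENSMUSG00000024222, chromosome 17, 28399094 to 28517527, minus strand) encodes a co-chaperone of HSP90 that lowers the receptor's affinity for hormone. Its levels were 45.6, 54.7, 50.1, 38.0 and 54.6 CPM in Nrf2Act-hep replicates 6 to 10, against 43.9, 40.2, 27.4, 23.8 and 34.3 CPM in WT replicates 1 to 5. Only Nrf2Act-hep replicate 9 lay inside the WT range, and the other 4 Nrf2Act-hep libraries stood above every WT library. Means were 48.6 ± 7.02 CPM in Nrf2Act-hep and 33.9 ± 8.43 CPM in WT livers, and the log2 fold change was 0.46 ± 0.15 (SE; 95% interval 0.15 to 0.77). It did not pass the threshold with limma (adjusted p = 0.0964) or with edgeR (adjusted p = 0.0874). On the deposited CPM without TMM scaling it did, at 0.59 with a limma adjusted p of 0.0342, on a scale where the median gene stood at 0.13. Within the letters the fold change was 0.67 in F and 0.25 in M libraries on the log2 scale, and neither passed.

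Lpin1 (ENSMUSG00000020593, chromosome 12, 16535669 to 16610966, minus strand) encodes lipin 1, a phosphatidate phosphatase of triglyceride synthesis that also acts as a coactivator of PPAR-alpha. It measured 185.6, 188.2, 301.6, 181.6 and 560.3 CPM in Nrf2Act-hep replicates 6 to 10, against 227.7, 163.2, 207.0, 243.3 and 247.2 CPM in WT replicates 1 to 5. Nrf2Act-hep replicate 10 stood far above the rest, and 3 of the other 4 Nrf2Act-hep libraries were below most WT libraries. The log2 fold change was 0.32 (95% interval -0.33 to 0.98, adjusted p = 0.653), and it was -0.02 without Nrf2Act-hep replicate 10 (adjusted p = 0.972).

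Ddit4, Sesn1 and Sesn3 encode inhibitors of mTORC1, the growth kinase complex downstream of insulin and AKT. Ddit4 (ENSMUSG00000020108, chromosome 10, 59949669 to 59951834, minus strand), also called REDD1, acts through the TSC complex. Its levels were 23.8, 37.8, 16.9, 22.5 and 81.3 CPM in Nrf2Act-hep replicates 6 to 10, against 3.38, 2.51, 26.1, 3.48 and 26.3 CPM in WT replicates 1 to 5. The WT libraries split: replicates 1, 2 and 4 were below every Nrf2Act-hep library, while replicates 3 and 5 were inside the Nrf2Act-hep range. The values rest on 452 reads in Nrf2Act-hep libraries and 114 in WT libraries, of which replicates 1, 2 and 4 gave 5, 3 and 6.

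Ddit4 averaged 36.5 ± 26.2 CPM in Nrf2Act-hep and 12.4 ± 12.6 CPM in WT livers (SD, n = 5 each). The log2 fold change of 2.14 ± 0.65 (SE; 95% interval 0.61 to 3.67) was the largest of the 9, and with limma it did not pass the threshold (adjusted p = 0.149). Leaving out each library gave 1.80 to 2.62, with limma adjusted p between 0.0751 and 0.316. The tools differed on this gene, since the log2 fold change was 2.21 with DESeq2 (adjusted p = 0.0296), 1.82 with edgeR (adjusted p = 0.224) and 1.85 with limma-voom (adjusted p = 0.324). Within the M libraries alone it was 2.72 with a limma adjusted p of 6.535e-06. That set Nrf2Act-hep replicates 6, 7 and 8 against WT replicates 1 and 2, which held only 5 and 3 reads of Ddit4. Within the F libraries alone the log2 fold change was 1.56 (limma adjusted p = 0.776). The term for a difference between the letters was -1.16 (95% interval -4.33 to 2.01, limma adjusted p = 0.916).

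The sestrins sense nutrients and stress and restrain mTORC1 through the GATOR complexes, and both are known FOXO targets. Sesn1 (ENSMUSG00000038332, chromosome 10, 41809935 to 41908424, plus strand) was at 5.96, 9.65, 6.38, 9.42 and 5.34 CPM in Nrf2Act-hep replicates 6 to 10, against 6.76, 5.86, 7.64, 6.39 and 10.2 CPM in WT replicates 1 to 5. Both groups spread over the same range, with a log2 fold change of 0.01 (95% interval -0.48 to 0.50, adjusted p = 0.989).

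Sesn3 (ENSMUSG00000032009, chromosome 9, 14275067 to 14333101, plus strand) was at 11.1, 9.25, 13.2, 18.8 and 15.2 CPM in Nrf2Act-hep replicates 6 to 10, against 20.3, 11.7, 17.8, 20.9 and 16.5 CPM in WT replicates 1 to 5. The lowest pair were M Nrf2Act-hep libraries and the highest pair were WT libraries. The log2 fold change was -0.28 (95% interval -0.68 to 0.12, adjusted p = 0.513).

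Trib1 and Pdk4 encode regulators of fat and glucose use. Trib1 (ENSMUSG00000032501, chromosome 15, 59648350 to 59657099, plus strand) is a pseudokinase that brings C/EBP-alpha to the ubiquitin ligase COP1. It was at 46.4, 41.8, 53.8, 39.3 and 58.3 CPM in Nrf2Act-hep replicates 6 to 10, against 52.7, 36.0, 101.2, 81.9 and 61.5 CPM in WT replicates 1 to 5. The 3 F WT libraries were the highest of all 10, while of the M WT libraries replicate 1 lay among the Nrf2Act-hep ones and replicate 2 was the lowest of all. The log2 fold change was -0.31 (95% interval -0.71 to 0.09, adjusted p = 0.461).

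Pdk4 (ENSMUSG00000019577, chromosome 6, 5483351 to 5496309, minus strand) encodes pyruvate dehydrogenase kinase 4, which shuts pyruvate out of the citric acid cycle and is known as a PPAR-alpha and glucocorticoid target. It was the lowest of the 10, at 0.851, 2.01, 1.37, 2.35 and 2.05 CPM in Nrf2Act-hep replicates 6 to 10, against 0.676, 0, 5.09, 6.97 and 2.67 CPM in WT replicates 1 to 5. These are 22 reads in Nrf2Act-hep and 27 in WT libraries in all, and several libraries are near or under the level of 3 reads. Means were 1.73 ± 0.607 CPM in Nrf2Act-hep and 3.08 ± 2.94 CPM in WT livers (SD, n = 5 each), a difference of -1.36 CPM (exact two-sided permutation test, p = 0.381, smallest possible 0.00794). Unlike the fits of the other genes, that test did not take the letter into account. Letters are unbalanced between the groups, with 2 F libraries in Nrf2Act-hep and 3 in WT, so the difference mixes genotype with letter.

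**Figure D2:**
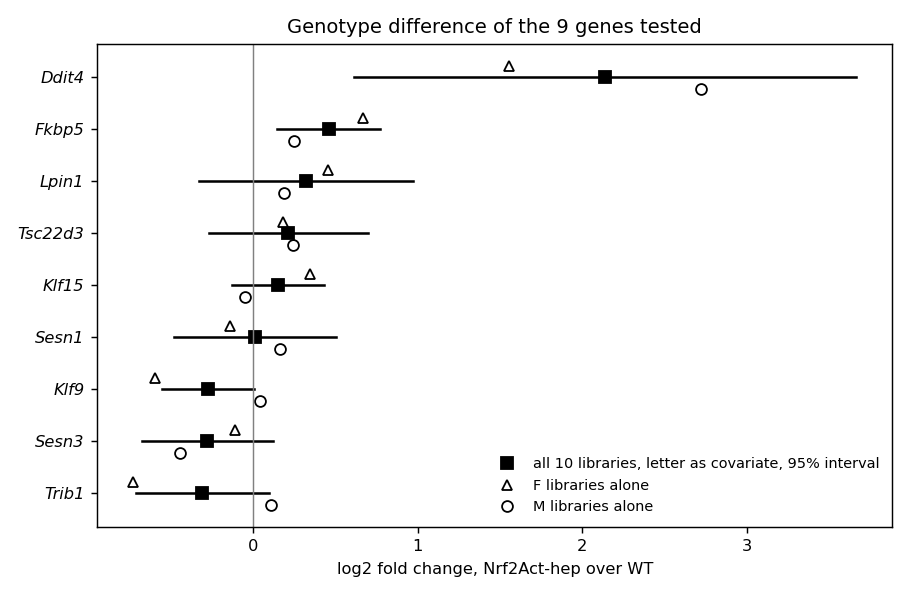
Log2 fold change of Nrf2Act-hep over WT for the 9 genes tested, from limma on all 10 libraries with 95% intervals and within the F and the M libraries alone. The intervals of Fkbp5 (0.15 to 0.77) and Ddit4 (0.61 to 3.67) lie above 0 before adjustment over all genes, and the other 7 include 0.

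The genes differed widely in how much they varied between libraries once genotype and letter were taken out. Ddit4 had a residual SD of 1.04 on the log2 scale, above 99.9% of the 8075 genes tested, and its highest library was 32.4 times its lowest. Lpin1 followed at 0.511, the 91.8th percentile, and Tsc22d3 at 0.455, the 86.8th percentile. Klf9 and Klf15 were the steadiest, at 0.221 and 0.223, where the median gene stood at 0.284. Fkbp5, Sesn3, Sesn1 and Trib1 lay between, at 0.243 to 0.385. Nrf2Act-hep replicate 10 was the highest of all libraries for Klf15, Lpin1 and Ddit4.

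**Figure D3:**
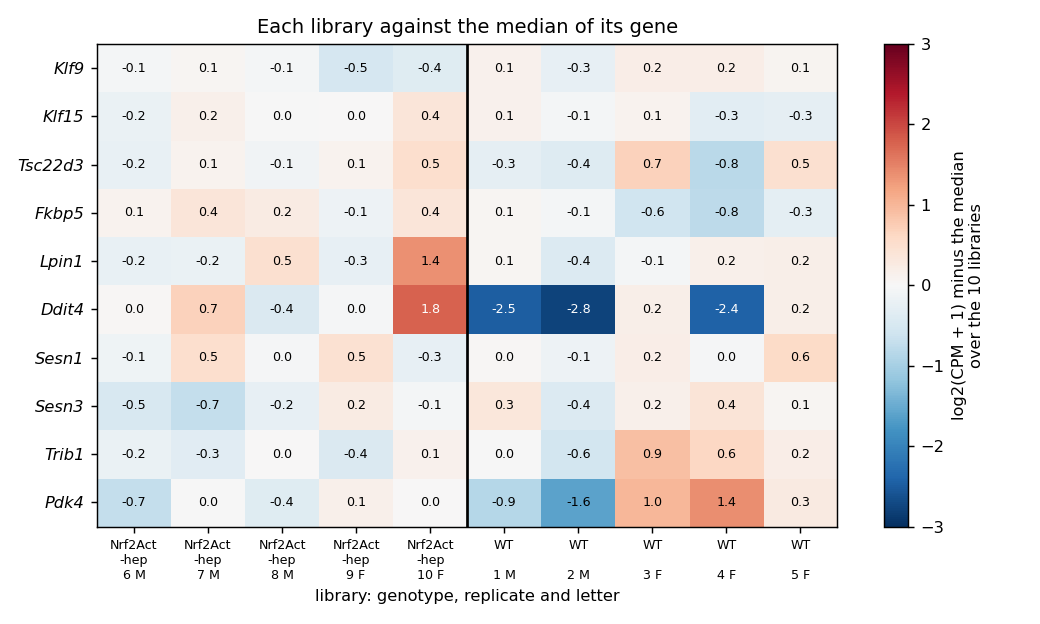
Each library's log2(CPM + 1) minus the gene's median over the 10 libraries, with genes in rows, Nrf2Act-hep libraries left of the line and WT libraries right of it. Ddit4 is far below its median in WT replicates 1, 2 and 4, and the high values of Nrf2Act-hep replicate 10 are in Lpin1 and Ddit4.

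Joint variation of the 10 genes across libraries was described pair by pair. With 10 libraries, a pair that misses the threshold is not thereby shown to vary independently. Of 45 pairs, 28 had a positive Pearson r over the 10 libraries, with a median r of 0.19. After Benjamini-Hochberg adjustment 0 pairs passed by Pearson's or Spearman's coefficient (100000-resample permutation test). An unadjusted Pearson p under 0.05 was seen for 6 pairs. Among them Fkbp5 ran opposite to Trib1 (r = -0.657), Sesn3 (-0.645) and Pdk4 (-0.637), each with a permutation adjusted p of 0.352, and the rest were positive. Without WT replicates 3 and 4, the farthest from the median of Fkbp5, r was 0.084, -0.483 and 0.038. The closest pair by p was Tsc22d3 with Ddit4. Because Ddit4 falls into separate clusters, with 3 WT libraries low and 7 libraries high, no single r over the 10 libraries describes the pair, and it was taken within the 7, which are set apart by the level of Ddit4 itself. There Pearson's r was 0.47 (exact permutation p = 0.304) and Spearman's rho 0.50 (exact permutation p = 0.267), and r was 0.34 without the 2 libraries farthest from the median of Tsc22d3. On residuals from genotype and letter over the 10 libraries r was 0.889 for this pair and 0.893 for Klf9 with Pdk4. Those 2 pairs passed after adjustment there, but the residuals were permuted as if no terms had been fitted, which can make p too small. The residual r is thus a description only, and for Ddit4 it still spans the 3 low WT libraries. Without that step, Klf9 with Pdk4 had r = 0.392 (permutation p = 0.261, adjusted p = 0.698). Pdk4 is below the filter, with 0 to 12 reads a library. Trib1 and Pdk4 had r = 0.779 (permutation p = 0.00839, adjusted p = 0.189) and rho = 0.721 (permutation p = 0.0235, adjusted p = 0.275) over the 10 libraries. Without WT replicates 3 and 4, the farthest from the median of Trib1, r was 0.468, so that relation rests in part on those libraries. On residuals from genotype and letter its r was 0.719, again a description only.

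Of the 9 genes tested, 0 differed between F and M libraries with genotype in the model, where 1.16% of all genes tested were called (limma, adjusted p under 0.05). At an unadjusted p under 0.05 there were 3 of the 9, and 823 of the 8075. Log2 differences, F minus M, were 0.44 for Trib1 (95% interval 0.04 to 0.84, adjusted p = 0.428), 0.40 for Sesn3 (0.00 to 0.80, adjusted p = 0.482) and -0.35 for Fkbp5 (-0.66 to -0.03, adjusted p = 0.424). edgeR, DESeq2 and limma-voom also called 0 of the 9. Pdk4, below the filter, averaged 3.83 ± 2.13 CPM in F and 0.981 ± 0.755 CPM in M libraries (SD, n = 5 each). Its F and M values met, from 2.05 CPM up in F and from 2.01 CPM down in M. The libraries at that boundary, Nrf2Act-hep replicates 10 (F) and 7 (M), held 5 reads each. The gap between them thus came from scaling alone and is not a separation in reads. Among the genes tested, which do not include Pdk4, 1.05% were higher in F without overlap. The contrast of Pdk4 between F and M was seen in the values, rests on few reads and was not tested.

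The difference between genotypes differed between the letters for 0 of the 9 genes, where 0.0248% of all genes tested were called (limma interaction term, F minus M, adjusted p under 0.05). At an unadjusted p under 0.05 there were 2 of the 9, and 576 of the 8075. The term was -0.63 for Klf9 (95% interval -1.12 to -0.15, adjusted p = 0.590) and -0.84 for Trib1 (-1.51 to -0.16, adjusted p = 0.603). In F libraries alone the log2 fold changes of Nrf2Act-hep over WT were -0.59 for Klf9 and -0.73 for Trib1, and in M libraries alone 0.05 and 0.11. edgeR, DESeq2 and limma-voom also called 0 of the 9 for this term.

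Other genes of the same routes gave context, from lists of textbook members that were chosen with earlier results of these data known. Counts within these lists are therefore a description and not a test of a route. Of 27 other glucocorticoid-induced genes, 4 passed as higher and 0 as lower in the Nrf2Act-hep group. Among all genes 2.79% were higher and 1.86% lower. The list's median log2 fold change was 0.13 against 0.01, and 16 of the 27 were above 0. Gadd45b, a stress-induced regulator of MAP kinase signalling, measured 24.3, 25.7, 24.2, 30.6 and 59.9 CPM in Nrf2Act-hep replicates 6 to 10, against 8.11, 4.18, 16.6, 12.2 and 12.5 CPM in WT replicates 1 to 5. All Nrf2Act-hep libraries were above all WT libraries. Its log2 fold change was 1.75 ± 0.20 (SE, limma adjusted p = 4.165e-06), and its call held in F libraries alone and in M libraries alone.

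Cebpd, a C/EBP transcription factor, averaged 16.9 ± 3.77 CPM in Nrf2Act-hep and 8.54 ± 3.96 CPM in WT livers (log2 fold change 1.06, limma adjusted p = 0.00646). Pim3, a serine/threonine kinase that promotes survival, averaged 103.4 ± 28.3 CPM in Nrf2Act-hep and 34.1 ± 11.8 CPM in WT livers (1.58, limma adjusted p = 0.0126). Tdo2, which opens the breakdown of tryptophan and is a classical glucocorticoid target in liver, averaged 4090 ± 651 CPM in Nrf2Act-hep and 2693 ± 154 CPM in WT livers (0.56, limma adjusted p = 0.0123). The call of Pim3 was lost without WT replicate 2 or Nrf2Act-hep replicate 10 (up to 0.0607 after adjustment). That of Tdo2 was lost without WT replicate 1, WT replicate 2 or Nrf2Act-hep replicate 7 (up to 0.0572).

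Among 19 tested genes of the receptor, hormone handling and chaperones, 0 were higher and 1 was lower, with a list median of -0.03. The lower gene was Nr3c1, the glucocorticoid receptor itself, at 46.2 ± 10.2 CPM in Nrf2Act-hep and 65.9 ± 11.4 CPM in WT livers (log2 fold change -0.55 ± 0.15, limma adjusted p = 0.0368). That call was lost with DESeq2 (adjusted p = 0.0655), without TMM scaling (0.114), without the low-value filter (0.0542), without the letter term (0.0663), and without any of WT replicates 1, 2 and 3 or Nrf2Act-hep replicates 7, 8 and 10 (up to 0.16).

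Of 20 tested insulin and FOXO fasting genes, 1 was higher and 0 lower, with a median of 0.03. Bnip3, a mitophagy receptor and FOXO target, averaged 626.7 ± 112.1 CPM in Nrf2Act-hep and 432.9 ± 71.0 CPM in WT livers (0.54, limma adjusted p = 0.0324). Its call was lost without any of 8 libraries, WT replicates 1, 2, 3 and 5 and Nrf2Act-hep replicates 6, 7, 8 and 10 (up to 0.184). Pck1, the gatekeeper enzyme of gluconeogenesis, averaged 1821 ± 340 CPM in Nrf2Act-hep and 1494 ± 255 CPM in WT livers (0.26, limma adjusted p = 0.406).

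Of 23 tested PPAR-alpha fasting genes, 4 were higher and 2 lower, with a median of 0.00. These 6 calls became 3 without WT replicate 2, Nrf2Act-hep replicate 7 or Nrf2Act-hep replicate 10, and the count was 3 to 7 without each library in turn. Cd36, a fatty acid transporter, averaged 282.7 ± 48.5 CPM in Nrf2Act-hep and 96.8 ± 18.3 CPM in WT livers (1.61, limma adjusted p = 2.3e-09). Ucp2, a mitochondrial carrier, averaged 10.9 ± 2.33 CPM in Nrf2Act-hep and 5.85 ± 2.31 CPM in WT livers (0.90, limma adjusted p = 0.0223, up to 0.0837 without WT replicate 2 or Nrf2Act-hep replicate 7, 9 or 10). The call of Ucp2 was also lost with DESeq2 (adjusted p = 0.0606) and without the letter term (limma, 0.0506). Bdh1, a ketone body enzyme, was lower at 75.2 ± 13.0 CPM in Nrf2Act-hep and 148.5 ± 23.4 CPM in WT livers (-1.01, limma adjusted p = 3.266e-05).

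Of 23 tested paralogs of the 10 genes, 1 was higher and 0 lower, with a median of 0.01. Lpin2, which encodes the other abundant lipin of the liver, averaged 380.7 ± 64.7 CPM in Nrf2Act-hep and 246.9 ± 61.2 CPM in WT livers (0.73 ± 0.14, limma adjusted p = 0.00162), and its call held without each library in turn. Of 9 tested genes of the pyruvate dehydrogenase complex, on which Pdk4 acts, 0 passed with limma and 0 had an unadjusted p under 0.05, with a median of -0.09.

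Of 16 tested clock genes 2 were lower, with a median of -0.12. Cry1, a repressor of the clock, averaged 2.97 ± 1.22 CPM in Nrf2Act-hep and 9.85 ± 5.98 CPM in WT livers (-1.41, limma adjusted p = 0.0160, 0.0914 without Nrf2Act-hep replicate 10). Nfil3, a clock output factor, averaged 4.64 ± 1.85 CPM in Nrf2Act-hep and 10.3 ± 4.09 CPM in WT livers (-0.97, limma adjusted p = 0.0481, up to 0.165 without any of WT replicates 1, 3 and 4 and Nrf2Act-hep replicates 7, 8, 9 and 10). The call of Nfil3 was also lost without TMM scaling (limma adjusted p = 0.0768), with a pseudocount of 0.5 (0.0503) and without the 10 most abundant genes (0.0507). Of 8 tested immediate early genes 1 was higher, with a median of 0.18. Zfp36, which encodes an mRNA decay factor, averaged 55.2 ± 12.3 CPM in Nrf2Act-hep and 29.0 ± 12.1 CPM in WT livers (0.90, limma adjusted p = 0.0296, up to 0.118 and lost without any single library but WT replicate 2 and Nrf2Act-hep replicate 6). In the F libraries alone, with 2 Nrf2Act-hep and 3 WT libraries, the calls of Cebpd, Tdo2, Bnip3, Lpin2 and Bdh1 were lost (limma adjusted p between 0.0543 for Bdh1 and 0.697 for Bnip3), and in the M libraries alone they held. Those of Pim3 (0.0624), Cry1 (0.379) and Zfp36 (0.436) were lost in the M libraries and held in the F libraries. Those of Nr3c1, Ucp2 and Nfil3 were lost in both, and those of Gadd45b and Cd36 held in both. The hour of collection is not in the labels, and its part in these values was not tested.

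**Figure D4:**
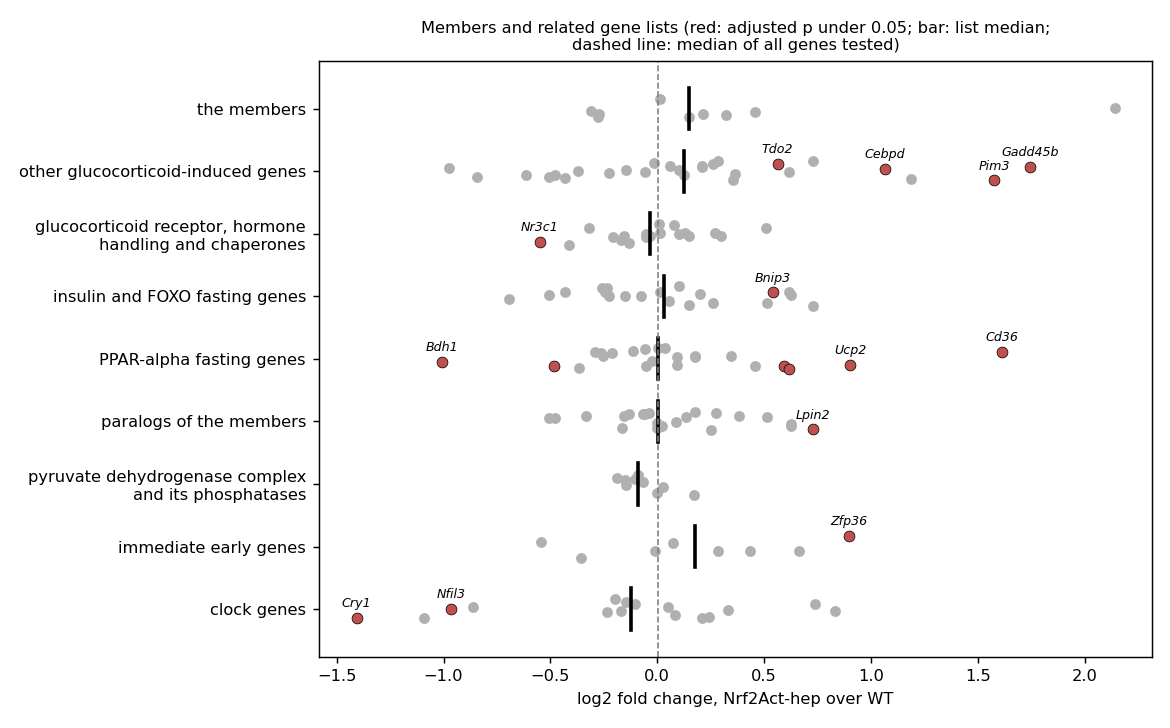
Log2 fold change of Nrf2Act-hep over WT for each tested gene of the 10 and of the related lists, with a bar at each list's median and red points for limma adjusted p under 0.05, named where the gene is described in the text. Red points are 4 other glucocorticoid-induced genes, 6 PPAR-alpha genes, 2 clock genes and 1 gene in each of 4 further lists. They include 0 of the 9 tested genes of the 10 described.

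Between F and M libraries, 5 of the 27 other glucocorticoid-induced genes were higher in F and 0 lower, against 0.57% higher and 0.594% lower among all genes. Genes higher in F were not limited to that list. They were 2 of 20 insulin and FOXO genes, 2 of 23 PPAR-alpha genes and 1 of 8 immediate early genes, with 0 lower in each. The remaining lists had 0 called. The 5 of the glucocorticoid list were chosen for naming after their values were seen. They were Angptl4, a lipoprotein lipase inhibitor (0.90, limma adjusted p = 0.00102), Mfsd2a, a lysophospholipid transporter (1.41, 0.00837), G6pc, the last enzyme of gluconeogenesis (0.86, 0.0155), Gadd45b (0.93, 0.0189) and Bcl6, a transcriptional repressor (1.03, 0.0382), each as log2 F minus M and its adjusted p. Angptl4 was at 62.2 and 65.7 CPM in F and 43.9, 42.6 and 46.9 CPM in M libraries of Nrf2Act-hep mice. In WT mice it was at 89.2, 83.0 and 88.6 CPM in F and 33.1 and 37.7 CPM in M libraries. The F libraries were above the M libraries within each genotype. Angptl4 is also in the PPAR-alpha list and G6pc in the insulin and FOXO list, so the counts of these lists overlap.

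**Figure D5:**
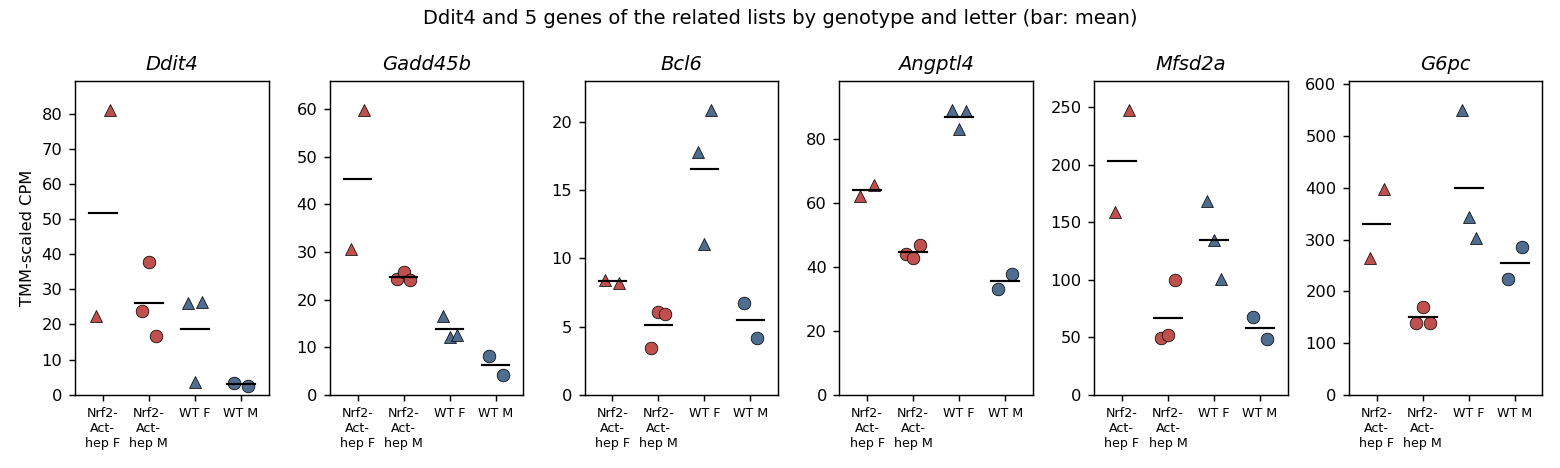
TMM-scaled CPM of Ddit4 and of the 5 glucocorticoid-induced genes called higher in F libraries, by genotype and letter, with a bar at each mean. Ddit4 is 3.38 and 2.51 CPM in the M WT libraries and 26.1, 3.48 and 26.3 CPM in the F WT libraries.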

How the data were processed

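QuantSeq 3′ libraries were made from total liver RNA and read as single reads, per the labels. The authors deposited CPM values for 18869 gene identifiers, each column summing to 1000000, on GRCm38 per the submitters' processing notes. Aligner, counter and strand use were not given in the sources used here. Reads were recovered from the CPM steps (100% whole within 0.01 read).

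Symbols and positions came from GENCODE models of GRCm38 for 18799 identifiers; 70 had none. CPM was rescaled by TMM (edgeR 4.0.16). Genes with 10 reads at median depth (4.50 CPM) in at least 5 libraries and 15 reads in all were tested with limma 3.58.1 (R 4.3.3, trend, robust) on log2(CPM + 1), which understates changes of low genes, with Benjamini-Hochberg adjustment over 8075 genes. On recovered reads edgeR called 217 genes higher and 157 lower, against 225 and 150 with limma; DESeq2 1.42.0 and limma-voom were further alternatives. The limma step was tested on simulated data.

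The 10 genes, the lists and the naming rule were chosen with earlier results of these data known. The rule named all 10 genes and, of each list, up to 4 genes past the threshold or, where fewer than 2 passed, the 2 most abundant; some of the latter, and 1 gene past the threshold, are not reported here. It also named the gene most similar to any of the 10 past the threshold, of which there was none.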

Additional observations from a re-analysis of the deposited data

Results flagged for a closer look

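Among 62 groups of 5 libraries looked at, 4 had 1 library far from the others by Dixon's criterion (gap over range above 0.71), which chance gives in about 1 in 20 groups. Gadd45b was 59.9 CPM in Nrf2Act-hep replicate 10, where the group's median was 25.7 CPM. Cry1 was 0.821 CPM in the same library, where the median was 3.36 CPM, and 20.4 CPM in WT replicate 3, where the median was 7.57 CPM. Ucp2 was 9.87 CPM in WT replicate 4, where the median was 5.35 CPM. None of the 10 genes had such a library.

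The genotype difference of Mt2, a metallothionein of the glucocorticoid list, differed between the letters. The limma interaction term was -2.52 (F minus M, adjusted p = 2.33e-05). Mt2 was at 286.1 and 302.1 CPM in F Nrf2Act-hep libraries, against 1302, 1342 and 1163 CPM in F WT libraries. It was at 492.9, 457.1 and 557.7 CPM in M Nrf2Act-hep libraries, against 456.8 and 306.3 CPM in M WT libraries.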

How the results depend on the processing

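The count of 0 of the 9 tested genes called by genotype became 1 with DESeq2 and 1 within the M libraries alone, Ddit4 each time. It became 1 on the deposited scale without TMM, Fkbp5. It was 0 without each library in turn. The counts for the letter and for its interaction with genotype were 0 under every alternative run. The fold changes of 5 of the 9 tested genes, none of them past the threshold, turned sign under an alternative. Sesn1 was -0.048 with limma-voom, -0.016 without the letter term, -0.14 in F libraries alone, and -0.093 to 0.18 without each library in turn. Within the M libraries alone Klf9 was 0.045, Klf15 -0.048 and Trib1 0.11. Without each library in turn Lpin1 was -0.023 to 0.60, Tsc22d3 0.0078 (without WT replicate 4) to 0.35, Klf15 0.035 (without Nrf2Act-hep replicate 10) to 0.23, Klf9 -0.42 to -0.17, Sesn3 -0.38 to -0.096 (without WT replicate 1) and Trib1 -0.51 to -0.11 (without Nrf2Act-hep replicate 9). Correlated pairs were 2 on residuals from genotype and letter, Tsc22d3 with Ddit4 and Klf9 with Pdk4, and 0 to 1 without each library in turn. The count on residuals is a description only, because the permutation took no account of the fitted terms. Pdk4 differed by -1.07 CPM without TMM (exact permutation p = 0.413, letter not taken into account). Over all genes, 225 higher and 150 lower calls became 384 and 80 on the deposited scale, whose median log2 fold change was 0.13, and 176 and 94 in M and 86 and 50 in F libraries alone. Leaving out WT replicate 1 gave 165 and 84, and leaving out Nrf2Act-hep replicate 7 gave 150 and 104. The causes were not tested. Depth limits Pdk4, with 0 to 12 reads a library, and Ddit4 in 3 WT libraries. Library numbers run from 1 to 10 without repeats, and no paired analysis was possible because no number is shared between genotypes.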
